A study of Mus musculus with 18 samples.

Results

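Matrix crosslinking enzymes join collagen and elastin molecules to one another, and 9 of their genes are described here in neonatal mouse cardiac fibroblasts: the lysyl oxidase genes Lox, Loxl1, Loxl2, Loxl3 and Loxl4, the lysyl hydroxylase genes Plod1, Plod2 and Plod3, and the transglutaminase gene Tgm2. The 9 genes were taken by name from the 55453 gene symbols of the deposited count table, and all 9 of 9 were among the 16170 symbols that passed the filter on low counts. The study asked how fibroblasts behave around the age at which the mouse heart loses its ability to regenerate. RNA was sequenced from GFP-positive cells that were sorted out of the apical region of the ventricles, in 6 groups of 3 libraries with 10462737 to 22980554 counts each.

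All groups were pups of 1 genotype on the C57BL/6J background, Tcf21-MerCreMer with the Rosa-mTmG reporter, and all received tamoxifen at postnatal day 1 (P1). Tcf21 drives the Cre, so GFP marks cells that had used Tcf21 when tamoxifen was given and their descendants, and fibroblasts outside this lineage were not sampled. The P2 baseline and P10 baseline groups were un-manipulated pups collected at P2 and P10. The P2 sham and P2 resected groups underwent sham surgery or removal of the ventricular apex at P2 and were collected 3 days later, at P5. The P10 sham and P10 resected groups underwent the same procedures at P10 and were collected at P13. The labels number 3 libraries per group but give neither the pups behind a library nor their sex. The tests therefore measure the spread between these libraries, and no batch is named. Titles differ in form within some groups. In P10 baseline, replicate 1 lacks the P of its group mates. In P2 resected and in P10 resected, replicate 1 lacks the letter that its group mates carry. The labels do not say what these differences stand for.

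Collagen crosslinks begin inside the cell, where lysyl hydroxylases add hydroxyl groups to lysines of procollagen in the endoplasmic reticulum. After secretion, copper-dependent lysyl oxidases turn lysines and hydroxylysines of collagen, and lysines of elastin, into reactive aldehydes that condense into crosslinks between neighbouring molecules. Transglutaminase 2 works differently, by bonding glutamine to lysine side chains in fibronectin and other proteins. In the heart these bonds stiffen the matrix and make scar collagen resistant to degradation.

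The fibroblast label was checked against marker genes. Tcf21 lay between 203 and 448 CPM (counts-per-million) and Pdgfra, a fibroblast receptor, between 256 and 879 CPM over the 18 libraries, while the summed fibroblast markers reached 24370 to 61680 CPM. The summed markers of other cells were lower and uneven, with sums of 798 to 2096 CPM for 8 epicardial genes, 429 to 1539 CPM for 9 mural cell genes, 162 to 1520 CPM for 10 cardiomyocyte genes, 45.3 to 672 CPM for 9 endothelial genes and 5.29 to 1079 CPM for 11 macrophage genes. Such sums depend on the genes listed, and the fibroblast list holds Col1a1 and Col1a2. Single genes were not always below Tcf21, as the mural gene Rgs5 reached 625 CPM and the cardiomyocyte gene Tnnt2 271 CPM. Upk3b and Msln of the epicardial list did not exceed 16.5 CPM. The macrophage genes Adgre1 and Csf1r and the epicardial genes Upk3b and Msln were at 0 in some libraries. P10 baseline replicate 1, whose title lacks the P of the other P10 baseline libraries, stood apart for several of the enzymes.

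**Figure D1:**
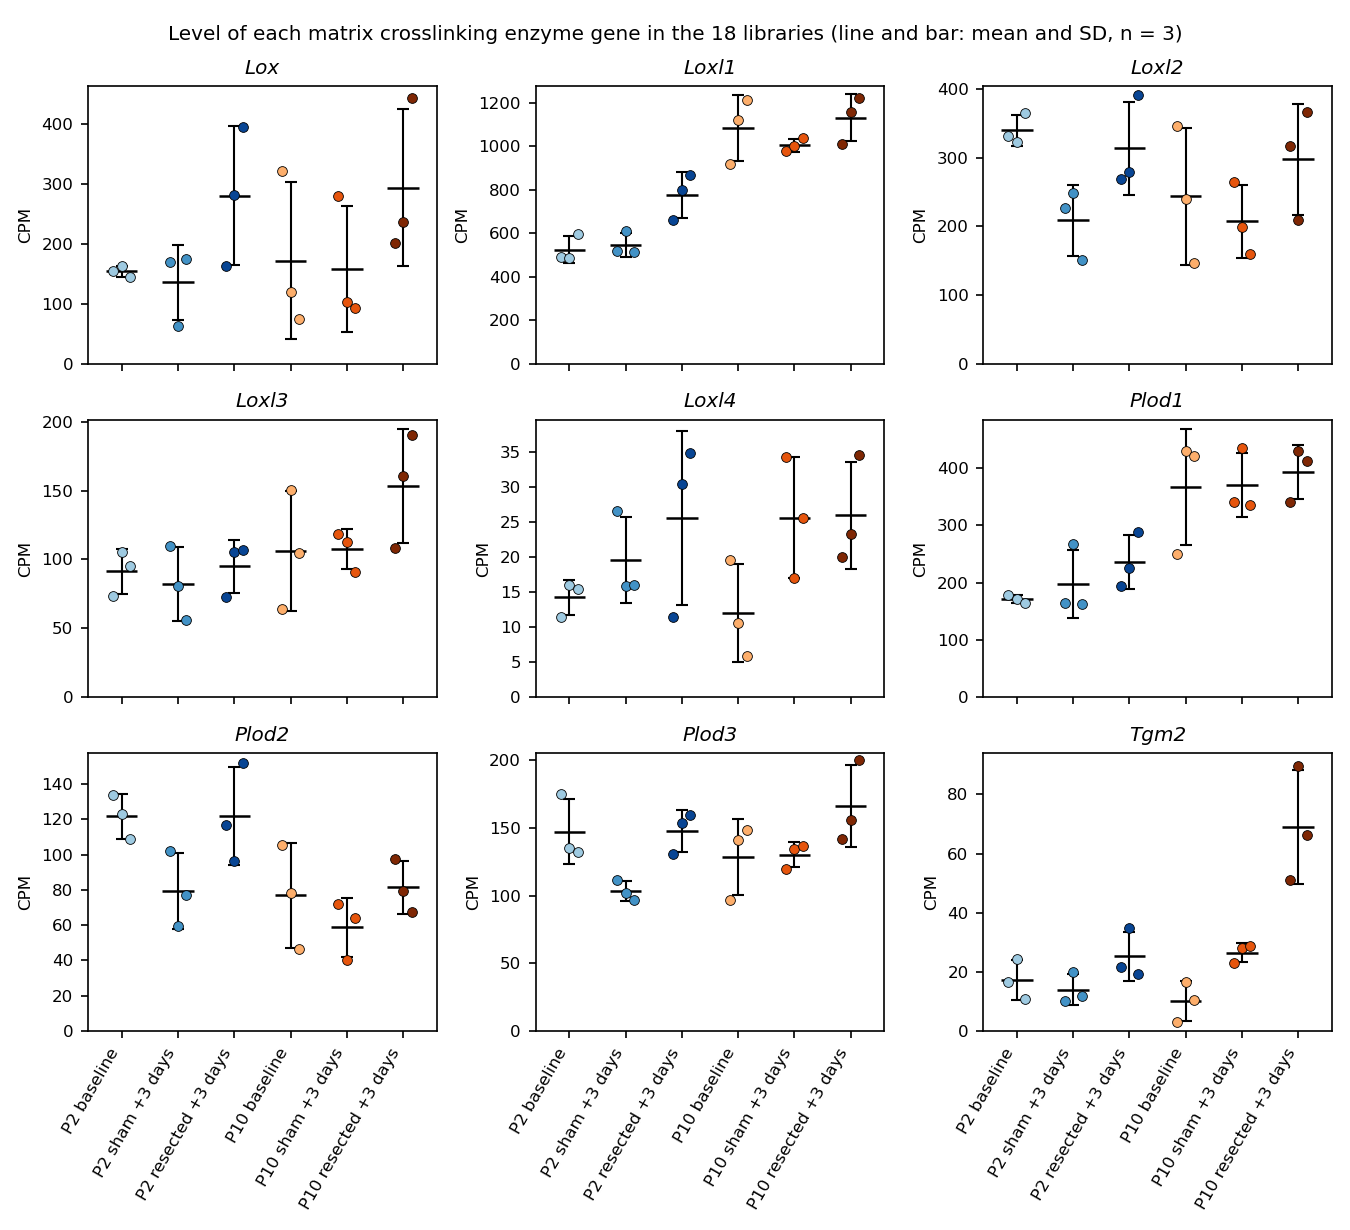
Level of each of the 9 genes in CPM (vertical axes starting at 0) in the 18 libraries, by group. Points are libraries, and the line and bar are the mean and SD of 3. Loxl1 and Plod1 sit higher in the P10 groups, Plod2 mostly lower, and Tgm2 is highest in the P10 resected libraries, at 51.2 to 89.6 CPM.

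Loxl1, a lysyl oxidase best known for its role in elastic fibres, was the most abundant of the enzymes per length of transcript. Its mean over the 18 libraries was 256 CPM per kilobase of exon (CPM per kb), and it ranked first of the 9 in 18 of 18 libraries. Loxl2 (49.7 CPM per kb), Plod1 (42.8), Lox (41.6), Plod3 (30.4), Loxl3 (23) and Plod2 (16.7) formed a middle range on the same scale, while Tgm2 (5.86) and Loxl4 (4.86) were lowest. The spread within groups also differed between the genes: the SD of log2 CPM within groups was 0.159 for Loxl1 and 0.214 for Plod3, against 0.642 for Tgm2 and 0.753 for Lox, with 0.622 as the median of all genes tested. A given fold change therefore carried a much larger error in Lox than in Loxl1.

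The family members are similar in coding sequence, which raises the question of whether reads could be assigned to the right gene. Reads were 75 bases long, and the longest run of bases shared by any pair of family members was 32 (Lox and Loxl1), so no such run filled a whole read. The runs shared by Loxl1 with Loxl2 and by Plod1 with Plod3 are shown, read from the transcripts on the coding strand, because they are among the longest in either family and involve Loxl1 and Plod1.
Loxl1 and Loxl2: cacaaggccagcttctgcctggaggaca
Plod1 and Plod3: atggaacactatggccagtggtct
In the mouse build GRCm38 the first run lies in coding exon sequence at chr9:58293626-58293653 (exon 4 of 7 of Loxl1, minus strand) and at chr14:69689101-69689128 (exon 11 of 14 of Loxl2, plus strand). The second lies at chr4:147917320-147917343 (exon 16 of 19 of Plod1, minus strand) and at chr5:136993275-136993298 (exon 16 of 19 of Plod3, plus strand).

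Loxl2 was the exception, since 42.7% of the 75-base stretches of its exons also occur in Gm21451, a nearby gene copy at chr14:69390854-69480287, and its counts are uncertain to that extent. Counting did not use strand, so genes that overlap on the opposite strand also limit some members. The shared part was 13.7% of exon bases for Tgm2 with Gm20412 and 8.03% with Rprd1b, 11.7% for Plod3 with Znhit1, 11.6% for Loxl3 with Htra2, 6.42% for Plod2 with Gm38391, 5.57% for Loxl2 with Gm27177 and 0.628% for Lox with AC161119.1. Loxl1 (chr9:58287738-58313186), Loxl4 (chr19:42593982-42612813) and Plod1 (chr4:147909753-147936767), all on the minus strand, had no such overlap. The remaining members lie on the plus strand (Loxl2 at chr14:69609068-69695834, Loxl3 at chr6:83034173-83052562, Plod2 at chr9:92542223-92608428 and Plod3 at chr5:136987019-136996648) or the minus strand (Tgm2 at chr2:158116402-158146436, and Lox on chromosome 18).

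The comparison of P10 with P2 addressed how crosslinking genes change as the heart matures. Over all 9 libraries of each starting age, Loxl1 and Plod1 rose and Plod2 fell, at an adjusted p under 0.05 in the quasi-likelihood test of edgeR, adjusted by Benjamini-Hochberg over all genes. These were 3 of 9 genes, where 13.5% of all genes tested passed (7.11% higher and 6.39% lower at P10). The median log2 fold change of the 9 was 0.15, against -0.06 for all genes tested. In sorted bulk cells, a change in the share of a cell type and a change in RNA per cell cannot be told apart.

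Loxl1 stood at 493, 487 and 595 CPM in the P2 baseline libraries, at 517, 611 and 514 CPM in P2 sham and at 660.1, 798 and 870 CPM in P2 resected. At P10 it stood at 919, 1120 and 1215 CPM in baseline, at 979, 1001 and 1037 CPM in sham and at 1012, 1160 and 1222 CPM in resected libraries. The lowest P10 library lay above the highest P2 library, a separation of all 9 from all 9 in the higher direction that 1.15% of genes tested showed. The means were 616 ± 138 CPM (SD, n = 9) and 1074 ± 109 CPM (SD, n = 9), a log2 fold change of 0.82 (SE 0.10, adjusted p = 3.03e-05 by edgeR).

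The rise of Loxl1 was called in un-manipulated and in sham-operated hearts. The log2 fold change was 1.05 between the baselines (SE 0.18, adjusted p = 0.00261 by edgeR) and 0.88 between the sham groups (SE 0.18, adjusted p = 0.00919), the latter losing its call without P2 sham replicate 3 (adjusted p = 0.0504, the highest of 23 alternatives). Between the resected groups the log2 fold change was 0.54 (SE 0.18, adjusted p = 0.224), with no overlap between the 3 libraries of either age, and Loxl1 passed there in DESeq2 (adjusted p = 0.0109) and voom (adjusted p = 0.0241), with a range of 0.0109 to 0.767 over all 23 alternatives. Whether the age difference itself differed between conditions was tested as an interaction, and neither resection against sham (log2 difference -0.33, SE 0.25, adjusted p = 1.0) nor sham against baseline (-0.17, SE 0.25, adjusted p = 1.0) passed.

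Plod1, which hydroxylates lysines in the helical part of collagen, moved with Loxl1. It stood at 178, 171 and 165 CPM in P2 baseline, at 164, 267 and 163 CPM in P2 sham and at 194, 226 and 288 CPM in P2 resected libraries. At P10 it stood at 251, 430.3 and 420.1 CPM in baseline, at 341, 435 and 335 CPM in sham and at 340.5, 429 and 411 CPM in resected libraries. The ages overlapped only through P10 baseline replicate 1, the lowest P10 value, which lay below P2 sham replicate 2 and P2 resected replicate 3. Mean levels of 202 ± 47.4 CPM at P2 and 377 ± 63.6 CPM at P10 (SD, n = 9 each) gave a log2 fold change of 0.91 (SE 0.14, adjusted p = 0.000311 by edgeR).

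Between the baselines, 2 of 9 genes passed, Loxl1 and Plod1, both higher at P10, where 4.38% of genes tested passed in either direction and 2.71% in that direction. Plod1 had a log2 fold change of 1.10 there (SE 0.25, adjusted p = 0.0174 by edgeR), and leaving out P10 baseline replicate 2 or 3 or any of the 3 P2 baseline libraries ended the call (adjusted p = 0.0668 to 0.0958, and 0.000313 to 0.0958 over all 23 alternatives). Between the sham groups 1 of 9 passed, Loxl1, where 3.18% of genes tested did, and Plod1 missed the threshold at a log2 fold change of 0.90 (SE 0.25, adjusted p = 0.057 by edgeR). Plod1 passed there in DESeq2 (adjusted p = 0.00767), without the filter (0.0414), with the replicate number as a block (0.0217) and in voom (0.0131), and over all 23 alternatives its adjusted p ranged from 0.00767 to 0.211. Between the resected groups 0 of 9 passed in edgeR, where 0.860% of genes tested did, with 4 of 9 at an unadjusted p under 0.05 (8.77% of genes tested) and with 2 of 9 passing in DESeq2 (496 of 16170 genes tested) and 3 of 9 in limma voom (908 of 16170). Plod1 had a log2 fold change of 0.74 there (SE 0.25, adjusted p = 0.247 by edgeR).

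**Figure D2:**
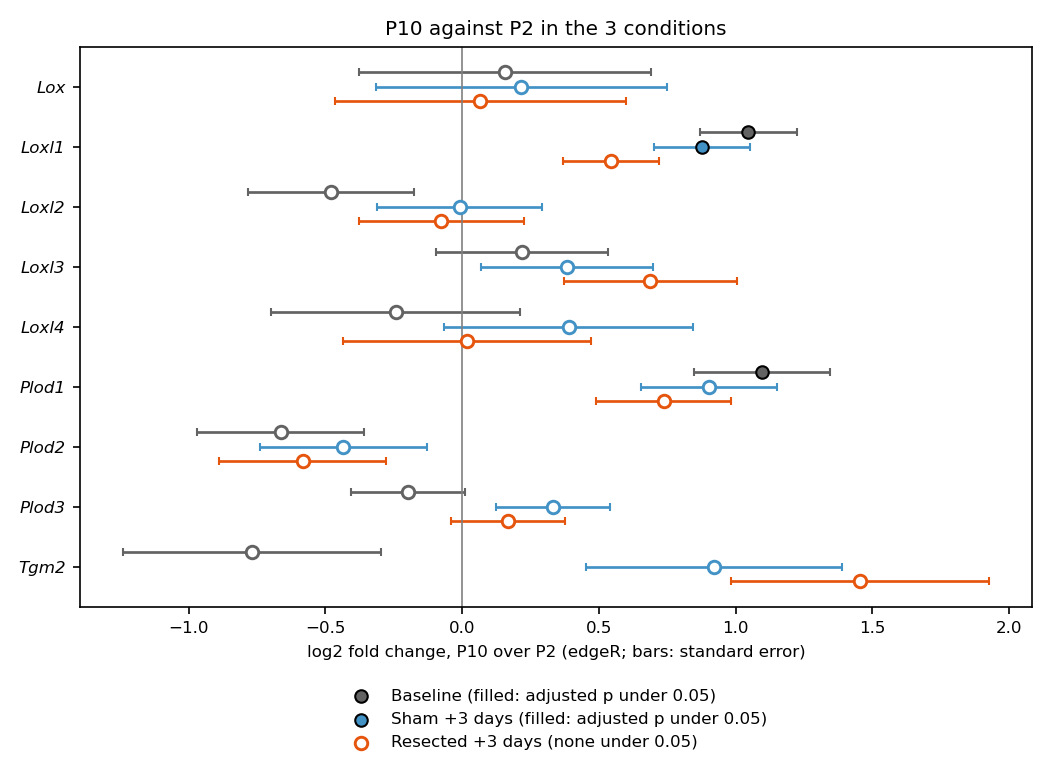
Log2 fold change of P10 over P2 for each gene (horizontal axis), in baseline, sham and resected groups of 3 libraries. Points are edgeR estimates, bars are standard errors, and filled points have an adjusted p under 0.05. Loxl1 and Plod1 lie to the right of 0 and Plod2 to the left in all 3 conditions, while Tgm2 is at -0.77 in baseline (-0.34 without P10 baseline replicate 1) and at 1.45 in resected groups.

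Plod2, the lysyl hydroxylase that acts on the ends of collagen molecules and is associated with the stable crosslinks of scar tissue, went the other way. It stood at 134, 123 and 109 CPM in P2 baseline, at 102, 59.4 and 77.1 CPM in P2 sham and at 117, 96.7 and 152 CPM in P2 resected libraries. At P10 it stood at 106, 78.3 and 46.6 CPM in baseline, at 72.2, 40.2 and 63.9 CPM in sham and at 97.3, 79.5 and 67.3 CPM in resected libraries. Values of the ages overlapped, although every P10 baseline library lay below every P2 baseline library, as in 12.1% of genes tested. The means were 108 ± 28.3 CPM (SD, n = 9) and 72.3 ± 21.3 CPM (SD, n = 9), a log2 fold change of -0.56 (SE 0.18, adjusted p = 0.0429 by edgeR). The call was narrow: with DESeq2's size factors the adjusted p was 0.052, and over the 18 fits that each left out 1 library it ranged from 0.0135 to 0.102 and was lost in 13.

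The third lysyl hydroxylase, Plod3, which also attaches sugars to hydroxylysine, did not pass, at 133 ± 26.5 CPM (SD, n = 9) and 142 ± 27.9 CPM (SD, n = 9), a log2 fold change of 0.10 (SE 0.12, adjusted p = 0.645 by edgeR). Promoter sequence was matched for 3 of the 9 genes, Plod1, Plod3 and Loxl4, in RefSeq's annotation of GRCm38.p6. The promoters of Plod1 (minus strand, chr4:147936727-147937026) and Plod3 (plus strand, chr5:136986769-136987068) are shown from 250 bases before to 50 bases after the start, since one of these related genes was called and the other was not. Capitals mark the letters GGGCGG (the GC box bound by Sp1), ACGTG (one form of the core of the hypoxia response element) and TATAAA (the letters of a TATA box), searched on both strands. The other form of the hypoxia core, GCGTG, was not searched and occurs unmarked in both windows.
Plod1: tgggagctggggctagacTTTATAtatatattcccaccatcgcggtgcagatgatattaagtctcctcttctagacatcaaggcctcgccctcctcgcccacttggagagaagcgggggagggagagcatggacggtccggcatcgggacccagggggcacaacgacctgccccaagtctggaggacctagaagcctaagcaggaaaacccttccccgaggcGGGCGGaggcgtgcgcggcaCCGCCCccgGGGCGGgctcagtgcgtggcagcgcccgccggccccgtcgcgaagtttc
Plod3: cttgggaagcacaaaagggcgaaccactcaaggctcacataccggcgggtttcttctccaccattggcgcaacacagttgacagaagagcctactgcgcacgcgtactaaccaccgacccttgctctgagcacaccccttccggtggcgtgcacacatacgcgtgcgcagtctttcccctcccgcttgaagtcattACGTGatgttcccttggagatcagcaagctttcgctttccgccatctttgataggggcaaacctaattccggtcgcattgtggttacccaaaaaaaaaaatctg
The Plod1 window held 3 GGGCGG, 1 TATAAA and 25 CpG pairs at 64.3% GC, and the Plod3 window held 1 ACGTG and 19 CpG pairs at 53.3% GC. The TATAAA match of Plod1 reads on the opposite strand and lies near the upstream end of the window, far from the start. Among 32851 promoters of the same length, 35.7% held GGGCGG, 19.6% ACGTG and 13.6% TATAAA, and the medians were 7 CpG pairs and 52.7% GC. The matches describe the letters and were not tested for binding.

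Because Plod1 and Plod2 moved in opposite directions, their ratio within a library is given as a description. Per kb of exon, Plod2 over Plod1 had a median of 0.755 (range 0.279 to 0.944) over the 9 P2 libraries and of 0.233 (0.116 to 0.529) over the 9 P10 libraries. The ages overlapped only through the lowest P2 value, that of P2 sham replicate 2, and the highest P10 value was that of P10 baseline replicate 1. Plod2 reads per 100 reads of the fibrillar collagen genes Col1a1, Col1a2 and Col3a1, whose products it modifies, had a median of 0.224 (0.139 to 0.358) at P2 and of 0.108 (0.0825 to 0.155) at P10. For Loxl1 the same measure was 1.32 (1.02 to 1.74) at P2 and 1.61 (1.09 to 2.23) at P10, and for Plod1 it was 0.464 (0.325 to 0.760) and 0.543 (0.296 to 0.894). Set against collagen reads, Loxl1 and Plod1 thus overlapped widely between the ages.

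**Figure D3:**
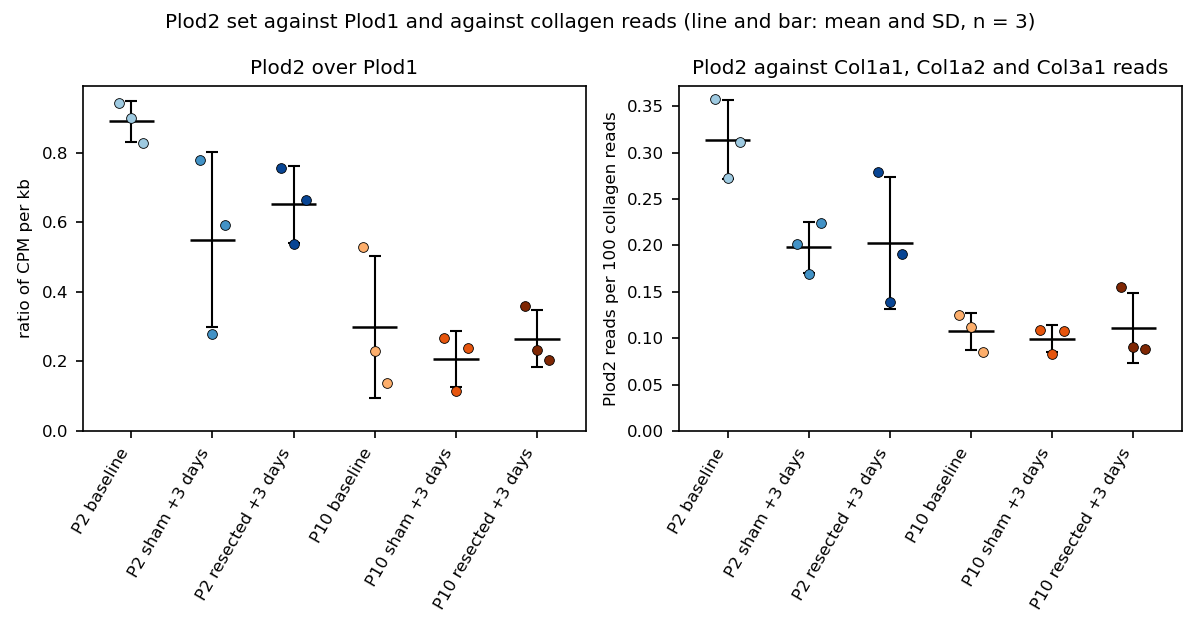
Ratio of Plod2 to Plod1 in CPM per kb (left) and Plod2 reads per 100 reads of Col1a1, Col1a2 and Col3a1 (right) in each of the 18 libraries, by group, with axes starting at 0. Points are libraries, and the line and bar are the mean and SD of 3. P10 libraries lie mostly below P2 libraries in both panels, with medians of 0.233 against 0.755 and of 0.108 against 0.224.

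The other lysyl oxidases did not pass in the comparison of all P10 with all P2 libraries. Lox, the founding member of the family, stood at 190 ± 94.9 CPM (SD, n = 9) and 207 ± 125 CPM (SD, n = 9), a log2 fold change of 0.15 (SE 0.31, adjusted p = 0.817 by edgeR) whose sign turned under limma voom with library weights (-0.29). Loxl2, which acts on basement membrane collagen, had a log2 fold change of -0.19 (SE 0.17, adjusted p = 0.535), and the low-level Loxl4 one of 0.05 (SE 0.26, adjusted p = 0.939), which turned to -0.039 under voom. Loxl3, a close relative of Loxl2, reached 0.43 (SE 0.18, adjusted p = 0.129). Tgm2 had a log2 fold change of 0.54 (SE 0.27, adjusted p = 0.205). Without P10 baseline replicate 1, the count of genes called rose from 3 to 5 with the addition of Loxl3 (adjusted p = 0.0403 by edgeR) and Tgm2 (adjusted p = 0.0398), against ranges of 0.0107 to 0.290 and 0.0398 to 0.460 over all 23 alternatives. Calls over all genes rose too, from 2183 of 16170 to 2987 of 17140 genes tested.

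Markers of other cells moved with age too. The summed fibroblast markers were 24370 to 44710 CPM at P2 and 44240 to 61680 CPM at P10, with 7 of 8 genes higher and 4 of 8 called (Col1a1 and Col1a2 stand in this list and among the substrates), and all 10 cardiomyocyte markers were lower at P10, 4 of them called (summed 318 to 1520 CPM at P2 and 162 to 829 CPM at P10). Of 9 mural cell markers 7 were higher and 5 were called, at sums of 429 to 1057 CPM and 614 to 1539 CPM. Of 11 macrophage markers 9 were higher at P10 (median log2 fold change 0.97), of 9 endothelial markers 5 (0.06) and of 8 epicardial markers 2 (-1.32), and none of these was called in edgeR. Their part in the age differences of the enzymes was not tested.

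Of 8 tested genes whose proteins activate or position lysyl oxidases, 3 rose and 1 fell at P10, where 7.11% of all genes tested rose and 6.39% fell. Fbln5, an elastic fibre protein that binds Loxl1, rose to 682 ± 91.0 CPM from 349 ± 121 CPM (SD, n = 9 each), at a log2 fold change of 1.03 (SE 0.12, adjusted p = 1.82e-05 by edgeR). Bmp1, the protease that releases active Lox from its precursor, rose from 477 ± 133 to 758 ± 92.2 CPM (log2 fold change 0.68, SE 0.16, adjusted p = 0.00655), and the remaining riser was Pcolce, named after its value was seen (0.68, SE 0.14, adjusted p = 0.00379). Postn, a matricellular protein that brings Bmp1 to its substrates, fell from 13020 ± 3559 to 5614 ± 3087 CPM, a log2 fold change of -1.24 (SE 0.25, adjusted p = 0.00269).

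Among 14 other genes for lysine and proline modification of procollagen, 2 rose and 2 fell, beside the same shares of all genes tested (7.11% and 6.39%). Colgalt2, which adds galactose to hydroxylysine, rose (log2 fold change 1.25, SE 0.30, adjusted p = 0.00913 by edgeR), as did the proline hydroxylase subunit P4ha2 (1.05, SE 0.18, adjusted p = 0.000571). P3h2, a prolyl 3-hydroxylase, fell (-1.07, SE 0.26, adjusted p = 0.00902), and P4ha3 was the other gene that fell, at -0.95 (SE 0.16, adjusted p = 0.000733), named after its value was seen. Of 9 substrates of the crosslinking enzymes, 3 rose and 1 fell, again beside 7.11% and 6.39% of all genes tested. Eln, which encodes elastin, rose from 1029 ± 702 to 2423 ± 715 CPM (SD, n = 9 each; log2 fold change 1.39, SE 0.21, adjusted p = 0.000211), Col5a3 rose (1.21, SE 0.17, adjusted p = 8.95e-05), and Col11a1 fell from 91.7 ± 39.2 to 16.9 ± 11.8 CPM (-2.46, SE 0.30, adjusted p = 2.80e-05). The third riser was Col3a1 (0.65, SE 0.13, adjusted p = 0.00269), named after its value was seen. Of 9 other transglutaminase genes 3 were tested and none passed in edgeR, and Tgm3, Tgm5 and F13b had 0 counts in all libraries.

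Resection was compared with sham surgery to ask how injury acts on these genes at an age when the heart regenerates and at one when it does not. No gene passed at either age, among the 9 or among all 16170 tested (0% of genes tested in edgeR, with 25 genes in DESeq2 at P2 and 39 at P10, none of them among the 9). All 9 of 9 log2 fold changes were above 0 at P2, where 49.9% of genes tested were, and 9 of 9 at P10, where 52.0% were. The median of the 9 was 0.52 at P2 against 0.00 for all genes tested, and 0.47 at P10 against 0.02. At an unadjusted p under 0.05 in edgeR there were 2 of 9 at P2 (4.51% of genes tested) and 1 of 9 at P10 (4.09%). The comparisons at P2 and at P10 share no libraries.

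**Figure D4:**
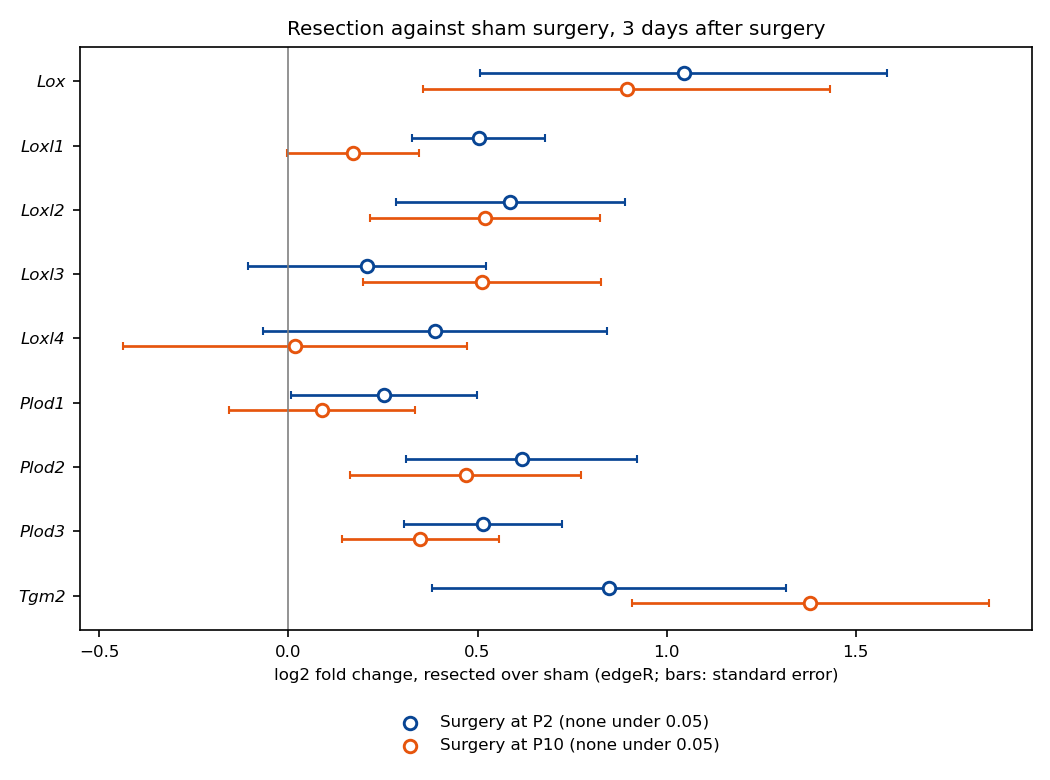
Log2 fold change of resected over sham libraries (horizontal axis) for each gene, with surgery at P2 or at P10, 3 libraries per group. Points are edgeR estimates and bars are standard errors; open points did not reach an adjusted p under 0.05. All 18 estimates lie above 0, from 0.02 for Loxl4 at P10 to 1.38 for Tgm2 at P10.

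Tgm2 had the highest estimate at P10. It stood at 22.9, 28 and 28.7 CPM in P10 sham and at 51.2, 89.6 and 66.4 CPM in P10 resected libraries, without overlap. The means were 26.5 ± 3.14 CPM (SD, n = 3) and 69.1 ± 19.4 CPM (SD, n = 3), a log2 fold change of 1.38 (SE 0.47, unadjusted p = 0.0093 and adjusted p = 1.0 by edgeR). At P2 it stood at 10.2, 19.9 and 11.9 CPM in sham and at 21.6, 34.7 and 19.3 CPM in resected libraries, which overlapped, with a log2 fold change of 0.85 (SE 0.47, adjusted p = 1.0). Between the resected groups, Tgm2 was higher at P10 without overlap, at a log2 fold change of 1.45 (SE 0.47, adjusted p = 0.227 by edgeR), and it passed in DESeq2 (adjusted p = 0.0491) and in voom (adjusted p = 0.0061). Over all 23 alternatives its adjusted p ranged from 0.0061 to 0.690. In the same comparison 11 of 11 macrophage markers (median log2 fold change 1.2), 7 of 9 endothelial markers (0.66) and 7 of 8 epicardial markers (1.39) were above 0, none called by edgeR, and their part in the Tgm2 value was not tested. In all, 4 of 9 genes were higher in every P10 resected than in every P2 resected library, as were 10.6% of genes tested.

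Macrophages and endothelial cells also contain Tgm2, so their markers are given for resection against sham. None was called at either age, and their sums overlapped. At P10, 11 of 11 macrophage and 9 of 9 endothelial markers had a log2 fold change above 0 against sham, none called by edgeR. The macrophage sums were 88.7, 350.3 and 279 CPM in sham and 442, 1079 and 69.9 CPM in resected libraries, and the endothelial sums were 86.7, 204 and 73.8 CPM and 672, 119 and 292 CPM. The epicardial sums were 963, 1399 and 1220 CPM in sham and 1336, 1105 and 2096 CPM in resected libraries. In the resected libraries Upk3b held 0 to 16.5 CPM and Msln 0.445 to 14.4 CPM of these sums, which thus rested mostly on other genes of the list. Of the 3 resected libraries, replicate 2 was highest in Tgm2 and in the macrophage sum, replicate 1 was lowest in Tgm2 and highest in the endothelial sum, and replicate 3, between them in Tgm2, was lowest in the macrophage and highest in the epicardial sum. At P2, 10 of 11 macrophage and 7 of 9 endothelial markers were above 0, with macrophage sums of 5.29 to 184 CPM in sham and 65.7 to 443 CPM in resected libraries. The endothelial sums there were 67.3 to 350.3 CPM in sham and 45.3 to 344 CPM in resected libraries. All 8 epicardial markers were above 0 at P10 and 4 of 8 at P2, and fibroblast markers were above 0 for 3 of 8 at P2 and 4 of 8 at P10. Cardiomyocyte markers were above 0 for 1 of 10 at P2, with sums of 909 to 1267 CPM in sham and 318 to 935 CPM in resected libraries, and for 8 of 10 at P10. Mural cell markers were above 0 for 7 of 9 at P2 and 6 of 9 at P10. The part of these cells in the resection values was not tested.

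Lox had the highest estimate at P2 and the widest error. It stood at 170, 63.5 and 174 CPM in P2 sham and at 163, 282 and 395 CPM in P2 resected libraries, where 1 resected library lay between the sham values (log2 fold change 1.05, SE 0.54, unadjusted p = 0.0688 by edgeR). At P10 it stood at 279, 102 and 92.1 CPM in sham and at 202, 236 and 443 CPM in resected libraries, again with overlap (log2 fold change 0.89, SE 0.54, unadjusted p = 0.114 by edgeR). The baselines, at 155, 162 and 144 CPM at P2 and 320.4, 119 and 74.6 CPM at P10, showed the same unevenness at P10, where replicate 1 was the highest of its group.

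Loxl1, Loxl2 and Plod3 separated completely at P2, each resected library being above each sham library, as in 5.62% of genes tested. Loxl1 had a log2 fold change of 0.50 (SE 0.18, unadjusted p = 0.0106 by edgeR) and Plod3 one of 0.52 (SE 0.21, unadjusted p = 0.0244), from 112, 102 and 96.8 CPM to 131, 154 and 159.8 CPM. Loxl2 rested on 227, 249 and 150.3 CPM in sham against 269, 279.7 and 392 CPM in resected libraries, at a log2 fold change of 0.59 (SE 0.30, unadjusted p = 0.0697). At P10 the separated genes were Tgm2 and Plod3, 2 of 9 where 5.63% of genes tested were, and Plod3 stood at 119.9, 135 and 137 CPM in sham and at 142, 156 and 200.1 CPM in resected libraries. Plod2 was at 0.62 (SE 0.31) at P2 and at 0.47 (SE 0.31) at P10, with overlapping libraries at both ages.

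Among the lower estimates were those of Loxl3 at P2 (0.21, SE 0.31), Loxl1 at P10 (0.17, SE 0.18), Plod1 at P10 (0.09, SE 0.25) and Loxl4 at P10 (0.02, SE 0.45). Loxl3 fell to -0.0023 at P2 without P2 sham replicate 3, and Loxl4 ranged from -0.25 to 0.28 at P10 when single libraries were left out, so the count of 9 of 9 rested on single libraries for Loxl3 at P2 and Loxl4 at P10. The difference between the resection effects at P10 and at P2 ranged from a log2 value of -0.37 (Loxl4, SE 0.64) to 0.53 (Tgm2, SE 0.66), and 0 of 9 passed in edgeR or DESeq2, with 0 of 9 at an unadjusted p under 0.05 (2.88% of genes tested).

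Resected and sham libraries of both ages were then compared in 1 contrast, which was chosen after the values above were seen and is no independent support for them. The estimates ranged from 0.17 for Plod1 (SE 0.17) to 1.11 for Tgm2 (SE 0.33), all 9 of 9 above 0 where 52.9% of genes tested were, with a median of 0.43 against 0.03 for all genes tested. Although 6 of 9 had an unadjusted p under 0.05, where 5.78% of genes tested did, 0 of 9 and 0 genes in all passed in edgeR, the smallest adjusted p among the 9 being 0.551 for Tgm2. Lox came next in size, at 0.97 (SE 0.38, adjusted p = 0.744). Without the filter on low counts, Lox (adjusted p = 0.00469 by edgeR) and Tgm2 (adjusted p = 0.0447) were among 96 of 28906 genes tested that passed. Over all 23 alternatives their adjusted p ranged up to 1.0 and 0.936.

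None of the genes in the lists of partners, procollagen modification and substrates was called after resection in edgeR. Their counts above 0 stand beside 49.9% of all genes tested at P2 and 52.0% at P10, with medians of 0.00 and 0.02. Of the 8 tested partners of lysyl oxidases, 8 were above 0 at P2 and 6 at P10, with medians of 0.30 and 0.08. Procollagen modification genes were above 0 for 11 of 14 at P2 and 10 of 14 at P10, with medians of 0.23 and 0.07. All 9 substrates were above 0 at both ages, with medians of 0.82 and 0.33.

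Sham hearts were compared with baseline hearts of the same starting age, a comparison that holds both the procedure and 3 days of growth, which cannot be told apart. At P2, 0 of 9 genes passed in edgeR or DESeq2, as did 0% of genes tested in edgeR, and 2 of 9 had an unadjusted p under 0.05 (7.60% of genes tested). Loxl2, Plod2 and Plod3 were lower in every sham than in every baseline library, as were 5.47% of genes tested. In the same comparison 9 of 11 macrophage markers were above 0 (median log2 fold change 0.70) and 3 of 10 cardiomyocyte markers (-0.63), none called by edgeR, and their part was not tested. Loxl2 went from 331, 323 and 365 CPM to the sham values given above (log2 fold change -0.70, SE 0.30, adjusted p = 0.615 by edgeR), Plod3 from 175, 135 and 132 CPM (-0.51, SE 0.21, adjusted p = 0.615), and Plod2 had a log2 fold change of -0.62 (SE 0.31, adjusted p = 0.666). These P2 sham libraries are also the controls of the P2 resection comparison, and the resected libraries of Loxl2, Plod2 and Plod3 had means of 313, 122 and 148 CPM beside baseline means of 339.8, 122 and 147 CPM.

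At P10, 0 of 9 genes passed in edgeR or DESeq2 (0.00618% of genes tested in edgeR), and 2 of 9 had an unadjusted p under 0.05 (7.40% of genes tested). Tgm2 went from 3.16, 16.5 and 10.6 CPM in baseline to the sham values of 22.9 to 28.7 CPM, without overlap (5.34% of genes tested were so separated), at a log2 fold change of 1.39 (SE 0.48, adjusted p = 0.576 by edgeR). The library at 3.16 CPM was P10 baseline replicate 1, and without it the log2 fold change was 0.97. All 11 macrophage markers were also above 0 in this comparison (median log2 fold change 1.42), as were 5 of 8 epicardial (1.06), 4 of 9 endothelial (-0.34), 2 of 10 cardiomyocyte (-0.60) and 0 of 9 mural cell markers (-0.54), and their part was not tested. Loxl4 had a log2 fold change of 1.09 (SE 0.46, adjusted p = 0.649), from 19.5, 10.5 and 5.92 CPM to 34.2, 16.9 and 25.6 CPM, with overlap.

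Tgm2 had the largest difference between sham and baseline in its age estimate. P10 over P2 gave a log2 fold change of -0.77 (SE 0.47, adjusted p = 0.406 by edgeR) in baseline and of 0.92 (SE 0.47, adjusted p = 0.342) in sham libraries, and the difference between these values was 1.69 (SE 0.66, unadjusted p = 0.0208, adjusted p = 0.646). Without P10 baseline replicate 1, at 3.16 CPM, the baseline value was -0.34 and the difference 1.26. The same difference was above 0 for 8 of 11 macrophage (median 0.79), 5 of 8 epicardial (1.44), 5 of 9 endothelial (0.30), 5 of 10 cardiomyocyte (-0.29) and 1 of 9 mural cell markers (-0.84), none called by edgeR. The difference in Tgm2 did not pass the adjustment, and no other of the 9 had an unadjusted p under 0.05 in that test, where 6.60% of genes tested did.

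Ordered by mean CPM, the 6 groups ran for Loxl1 from P2 baseline (525 ± 61.1 CPM, SD, n = 3) through P2 sham (547 ± 55.0), P2 resected (776 ± 107), P10 sham (1005 ± 29.3) and P10 baseline (1085 ± 151) to P10 resected (1131 ± 108), and of the 5 steps between neighbours 2 were free of overlap, those on either side of P2 resected. For Tgm2 the order ran from P10 baseline (10.1 ± 6.70 CPM) through P2 sham (14.0 ± 5.21), P2 baseline (17.2 ± 6.80), P2 resected (25.2 ± 8.34) and P10 sham (26.5 ± 3.14) to P10 resected (69.1 ± 19.4), and the last step alone was free of overlap. Plod2 also had 1 such step of 5. For Lox, Loxl2, Loxl3, Loxl4, Plod1 and Plod3 every neighbouring pair of groups overlapped.

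As a description over the 18 libraries, whose points share their library and group, Pearson's r of log2 CPM between the enzymes was highest for Loxl1 with Plod1, at 0.94, and lowest for Plod1 with Plod2, at -0.64. It was 0.68 for Loxl2 with Plod2 and for Lox with Loxl4, and between 0.60 and 0.64 for Loxl3 with Loxl1, Plod1, Plod3 and Tgm2, for Plod3 with Tgm2 and for Lox with Loxl2. The genes most like each member by the same measure were Wwtr1 for Lox (0.931), Lamp1 for Loxl1 (0.960), Pabpc1 for Loxl2 (0.847), Slc11a2 for Loxl3 (0.832), Sfrp1 for Loxl4 (0.869), Loxl1 for Plod1 (0.937), Col12a1 for Plod2 (0.919), Ganab for Plod3 (0.885) and Ccn5 for Tgm2 (0.841). Plod1 was the only member whose closest gene was another of the 9.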

How the data were processed

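The authors trimmed reads with fastp 0.20.0, aligned them with STAR 2.7.0f and counted them per gene with featureCounts of Subread 1.6.4, per the labels and methods, without strand, and deposited raw counts in 1 table. The build was GRCm38, and positions here are from the GENCODE M21 annotation. The 9 genes and the lists of partners, substrates and markers were chosen with earlier results of these data known.

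Genes were kept by filterByExpr (minimum count 10, minimum total 15), scaled by TMM, and tested in edgeR 4.0.16 (R 4.3.3) by the quasi-likelihood test with 1 mean per group over all 18 libraries, so that the 6 groups share 1 estimate of the spread. P values were adjusted by Benjamini-Hochberg over all 16170 genes, with a threshold of 0.05. CPM used TMM-scaled library sizes, and log2 CPM a prior count of 2. All tests are two-sided. Age over all libraries weighs the 3 conditions equally. Replicate libraries differed by more than sampling noise, with r of 0.852 to 0.957. The edgeR fit was also run on simulated counts as a check of the code, and its outcome is not given here.

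Alternatives were DESeq2 1.42.0, its size factors in edgeR, no filter, the replicate number as a block, limma 3.58.1 voom with sample quality weights, and leaving out each library. All members were named, and of each list at most the 3 called genes with the largest age change, beside those said to be named after their values were seen.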

Additional observations from a re-analysis of the deposited data

How the results depend on the processing

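Over all 9 libraries per age, 3 of 9 genes passed, and 2 to 5 when single libraries were left out, the 5 without P10 baseline replicate 1 (2987 of 17140 genes tested, against 2183 of 16170). Voom also gave 5. Between the sham groups 2 of 9 passed, in place of 1, in DESeq2, without the filter, with the replicate block and in voom, and 0 to 2 when single libraries were left out (0 without P2 sham replicate 3, 2 without P2 sham replicate 2 or P10 baseline replicate 1). Between the resected groups 2 passed in DESeq2, 1 without the filter and 3 in voom, in place of 0. Between the baselines 1 to 2 passed when single libraries were left out, and voom gave 3 in place of 2, adding Plod2 (-0.84, adjusted p = 0.0225). In the contrast of resection over both ages 2 passed without the filter, in place of 0. Of 56 log2 fold changes followed gene by gene, signs turned for the age difference of Lox (-0.29 in voom, -0.13 to 0.27 without single libraries) and Loxl4 (-0.039 in voom, -0.13 to 0.16), for Loxl3 between baselines (-0.12 to 0.48), and for resection in Loxl3 at P2 (-0.0023 to 0.48) and Loxl4 at P10 (-0.25 to 0.28). Counts above 0 among the 9 also moved elsewhere, from 7 to 5 in voom and 6 with the block between resected groups, and from 5 to 2 in voom and 3 without the filter for sham against baseline at P10. The causes were not tested. Resection over sham was above 0 for 9 of 9 genes at both ages under all 5 alternatives that kept every library. These fits use the same libraries and are no further support. Of 16170 genes tested, 9130 at P2 and 9211 at P10 were above 0 in voom, and 8999 and 9018 with the block. The counts were 7750 and 8461 in DESeq2 and 7746 and 8460 with its size factors in edgeR. Without the filter they were 14323 and 13193 of 28906.

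Over all genes, the count passing between baselines rose from 709 to 1600 (DESeq2), 1155 (no filter) and 3645 (voom). Between shams it rose from 515 to 1191 in DESeq2, 911 without the filter, 636 with the block and 707 in voom. Between resected groups it rose from 139 to 496 (DESeq2), 526 (no filter) and 908 (voom). Over all libraries it rose from 2183 to 4569 in voom. For resection over both ages it rose from 0 to 68 (DESeq2), 96 (no filter) and 51 (voom). The fit without the filter tested 28906 genes and the other fits named here 16170. A higher count without the filter therefore does not mean a higher share of genes. DESeq2 and the fit without the filter gave 25 and 24 genes for resection at P2 and 39 and 76 at P10, where edgeR gave 0, and 138 and 110 for sham against baseline at P2 (0) and 121 and 151 at P10 (1). For the difference between resection effects they gave 24 and 30 (0), and for that between age effects of sham and baseline 102 and 171 (0).

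Replicate numbers are shared across groups, and no source ties a number to a shared animal, litter or day, so they were not taken to pair the libraries. The 45 same-numbered pairs had correlated deviations of -0.135 to 0.378, 15 of them over 0.1, and 10 of 18 libraries correlated best with their own number. The count to expect without pairing was not computed, so these values cannot tell whether the libraries are paired. The titles carry other numbers, which differ among libraries of the same replicate number. With the replicate number as a block, 2 of 9 genes passed between the sham groups, Plod1 being the addition (adjusted p = 0.0217 by edgeR).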
